A study of Mus musculus with 6 samples.

Results

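Chemokines are small secreted proteins that steer the movement of leukocytes and other cells, and chemokine receptors are the cell-surface receptors that read them. The set described here holds every row of the counts table whose gene symbol begins with Ccl, Cxcl, Ccr, Cxcr or Ackr followed by a digit, together with Cx3cl1, Cx3cr1, Xcl1 and Xcr1. That rule takes 70 of the 54838 rows. Of these, 45 rows are ligands, 23 are receptors and 2 are pseudogenes of Ccl19. At least 1 fragment was counted for 60 of the 70 rows, and 45 rows had a count in all 6 libraries. The 10 rows at 0 are 7 copies on unplaced scaffolds, both pseudogenes and Ccl26. The low-count filter left 37 genes for testing, 24 ligands and 13 receptors.

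RNA was measured in whole sciatic nerve of mice at postnatal day 3 by sequencing, in 3 wild-type (WT) libraries and 3 libraries of the genotype CnpCre Actl6afl/fl, called conditional knockout (cKO) below. Both groups are labelled with the strain C57 Bl. In the cKO, Cre recombinase is driven from Cnp, a gene active in myelinating glia and their precursors, and both Actl6a alleles are floxed. The protein of Actl6a, BAF53a, belongs to the BAF chromatin remodelling complex. The labels do not say whether the WT mice carried Cre or floxed alleles, nor whether a library came from 1 animal or several, so the p-values measure only the spread between these libraries, which may be technical.

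Chemokines fall into CC, CXC, CX3C and XC families by the spacing of conserved cysteines, and most bind several receptors. Conventional receptors couple to inhibitory G proteins and drive migration, whereas the atypical receptors (Ackr genes) bind chemokines without such coupling and scavenge or transport them. In peripheral nerve, Schwann cells, fibroblasts, endothelial cells and resident macrophages are known sources of chemokines, and Ccl2 is known for drawing monocytes into injured nerve.

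Total counts ran from 31404107 to 36760296 per library. Actl6a itself read 49.4 ± 3.61 CPM (counts scaled to library size with TMM factors, SD, n = 3) in WT nerves against 43.8 ± 3.29 CPM in cKO nerves, and edgeR called no difference (log2 fold change -0.17, adjusted p = 0.243). The labels do not give the floxed exons, and the count covers the whole gene in all cells of the nerve. The Schwann cell markers Sox10 (262 ± 20.7 CPM in WT against 137 ± 44.2 CPM in cKO libraries, SD, n = 3, edgeR adjusted p = 0.044) and S100b (165 ± 19.1 against 31.1 ± 5.98 CPM, adjusted p = 0.00058) were present in every library and lower in cKO nerves. The second cKO library stood apart with 61786 CPM of summed skeletal muscle markers, against 3350 to 4884 CPM in the other 5 libraries, so results that rest on it are given with and without it. The first cKO library held 10002 CPM of summed erythroid markers and 41.1 CPM of summed platelet markers, against 3114 to 3962 and 9.8 to 13.3 CPM in the other cKO libraries and 1246 to 1798 and 12.5 to 15.6 CPM in WT. Cxcl14, Cxcl1, Cxcl2, Cxcl10, Cxcl16, Ccl2, Ccl5, Ccl6, Ccl9, Ccl12, Ccr1, Cxcr3 and Ackr3 were among the genes highest in that library. Ackr2, Ackr4, Ccl7, Ccl24, Cxcr2 and Cxcr4 were highest in another cKO library. The part of erythroid cells and platelets was not tested. Mast cell markers summed to between 187 and 229 CPM in WT, and to between 299 and 382 CPM in cKO libraries, with 4 of 7 called higher. Macrophage markers summed to between 734 and 856 CPM in WT, and to between 1217 and 1768 CPM in cKO libraries, with 11 of 13 called higher and none at 0. In whole tissue, a larger number of cells of a type and more RNA per cell cannot be told apart.

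Of the 37 genes tested, 14 were higher and 2 were lower in cKO nerves, and 21 were not called (edgeR quasi-likelihood test, called at a Benjamini-Hochberg adjusted p below 0.05 over all genes). Over all 18775 genes tested, 8.55% were called higher and 10.3% lower. The higher genes included the ligands Cxcl14, Cxcl2, Cxcl1, Cxcl16, Ccl24, Ccl9, Ccl12, Ccl6 and Ccl7, the conventional receptors Cxcr2 and Cxcr4, and the atypical receptors Ackr2 and Ackr4. The lower genes were Cxcl11 and Ccl22. The median log2 fold change of the 37 genes was 0.63, beside 0.04 over all genes tested, and 28 of the 37 (75.7%) were above 0, beside 54.3% of all genes. Ccl4, Ccl8, Cxcl2 and Cxcr2 passed the filter only through the cKO libraries, and Ccl22 only through the WT libraries. The other 32 genes had a median of 0.47, with 12 called higher and 1 lower. Every cKO library lay above every WT library for 19 of the 37 genes and below every WT library for 3, beside 21% and 21.7% of all genes tested. Among the 32 genes that passed the filter in both groups, these numbers were 17 and 2.

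**Figure D1:**
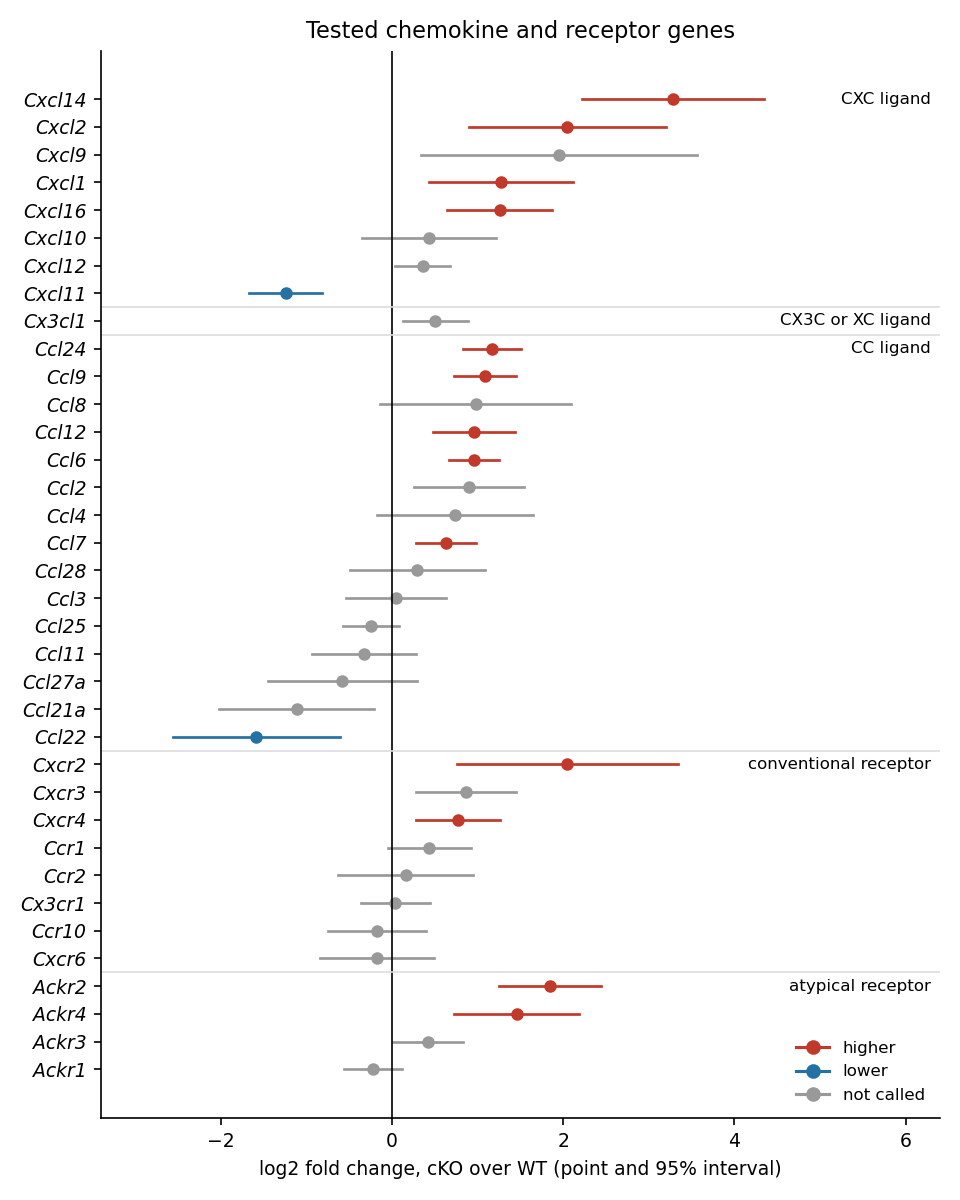
Log2 fold change of tested genes (x axis, cKO over WT) with its 95% interval, grouped by class on the y axis and coloured by call. Cxcl14 sits farthest to the right at 3.28 and Ccl22 farthest to the left at -1.59, and genes called higher appear in all classes except the CX3C and XC ligands.

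Levels between genes were compared per exonic length, as fragments per kilobase, scaled to library size as for CPM (FPKM). Ccl11, or eotaxin, which attracts eosinophils through Ccr3, was the most abundant ligand in both genotypes, at 127, 155 and 128 FPKM in WT against 131, 68.1 and 128 FPKM in cKO libraries. It made up 58.9% of the summed ligand level in WT and 36% in cKO nerves. The groups overlapped, with the second cKO library alone below all others. In CPM, the log2 fold change of Ccl11 was -0.33 (95% interval -0.94 to 0.28, adjusted p = 0.393), and without the second cKO library it was -0.08.

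After Ccl11, the WT order per length was Cxcl12 at 15.3 ± 0.803, Ccl2 at 12.9 ± 3.3, Ccl7 at 12 ± 1.32 and Ccl6 at 10.8 ± 0.948 FPKM (SD, n = 3 each). The spreads of Cxcl12 and Ccl2 overlap, as do those of Ccl2, Ccl7 and Ccl6, so their order is not resolved. Cxcl14 ranked 9 in WT at 4.6 ± 0.349 FPKM and 2 in cKO at 44.7 ± 24.1 FPKM (SD, n = 3 each). Its share of the summed ligand level went from 1.98% to 14.7%.

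Among receptors, the atypical receptor Ackr3 led in both genotypes, at 20.4 ± 2.28 FPKM in WT against 27.2 ± 5.89 FPKM in cKO nerves (SD, n = 3 each). By group mean, Ackr1, Ccr1, Cx3cr1 and Cxcr4 followed, at 12.3 ± 1.74, 7.03 ± 1.23, 5.88 ± 0.311 and 2.76 ± 0.33 FPKM in WT (SD, n = 3 each). In cKO nerves they stood at 10.5 ± 1.09, 9.49 ± 2.25, 6.03 ± 1.38 and 4.71 ± 1.16 FPKM (SD, n = 3 each). The spreads of Ccr1 and Cx3cr1 overlapped in WT, and in cKO nerves each of these 4 genes overlapped with the next, so the order of these neighbours is not resolved. Ackr2 ranked 7 in WT and 6 in cKO.

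**Figure D2:**
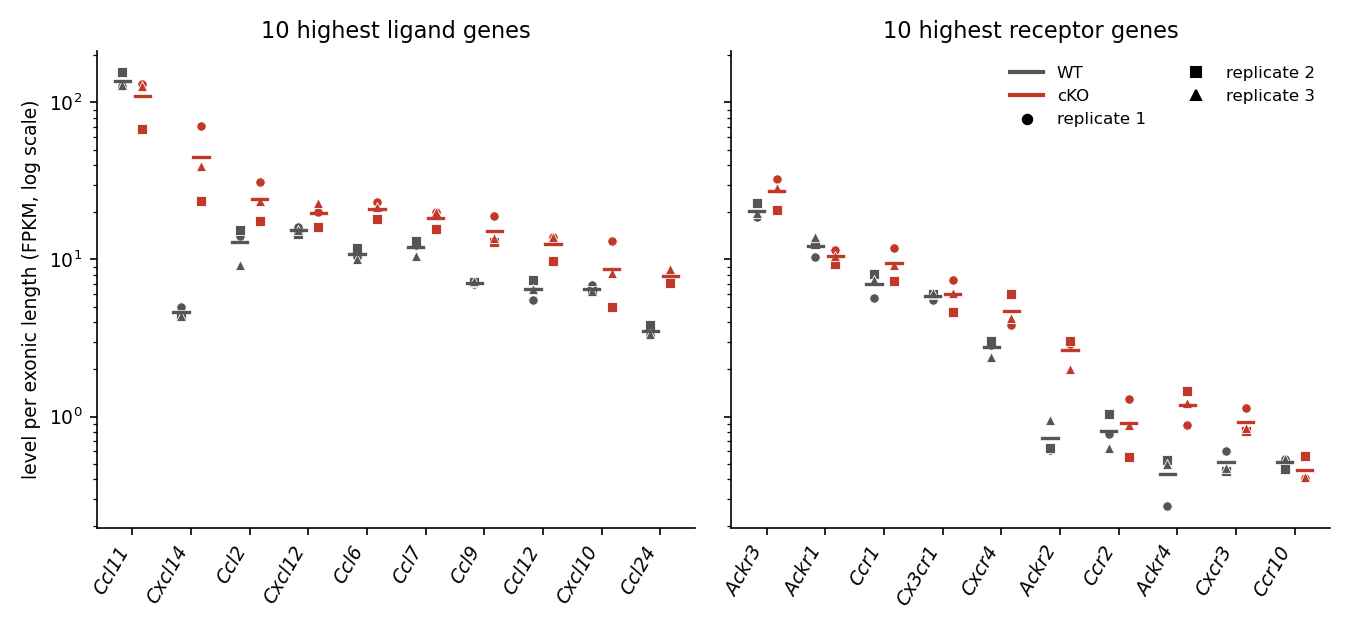
Level per exonic length (FPKM, log scale) of the 10 ligand and the 10 receptor genes with the highest mean over all libraries, with 1 point per library and a bar at the group mean. Ccl11 and Ackr3 lead their panels, and Cxcl14 moves from 4.6 to 44.7 FPKM.

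Cxcl14, a CXC chemokine of epithelia and connective tissue whose receptor is not settled, showed the largest fold change of the set. It read 9.15, 8.07 and 8.02 CPM in WT against 130, 43.1 and 72.3 CPM in cKO libraries. The lowest cKO library was thus well above all WT libraries, but the cKO libraries differed widely among themselves. The log2 fold change was 3.28 ± 0.43 (SE, 9.71-fold, adjusted p = 0.00671), and it ran from 2.78 to 3.58 when each library was left out in turn, with the call kept in all 6 such fits. The gene lies on GRCm38 chromosome 13 (56288643 to 56296551, reverse strand), and none of its 50-base transcript words occurs in another gene.

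The 250 bases before the RefSeq start of Cxcl14 (GRCm38.p6, chr13:56296552-56296801, reverse strand) are shown because this gene changed most. Capitals mark, in order, a GAS element (TTCNNNGAA, the letters read by activated STAT dimers) and an interferon-stimulated response element core (ISRE, GAAANNGAAA), which begin 191 and 172 bases before the start.
Cxcl14: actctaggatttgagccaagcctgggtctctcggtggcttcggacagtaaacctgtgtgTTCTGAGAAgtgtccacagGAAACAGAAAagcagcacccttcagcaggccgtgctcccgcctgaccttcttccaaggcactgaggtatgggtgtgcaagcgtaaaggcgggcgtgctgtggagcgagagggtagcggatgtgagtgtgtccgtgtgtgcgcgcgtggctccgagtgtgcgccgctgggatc
The 2 motifs do not overlap. A match describes letters and is neither a bound site nor a cause.

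Cxcl1 and Cxcl2 attract neutrophils through Cxcr2. Both ligands and the receptor were called higher, but Cxcl2 and Cxcr2 passed the low-count filter only through the cKO libraries. Cxcl1 read 0.963, 1.47 and 1.42 CPM in WT against 4.74, 2.23 and 2.37 CPM in cKO libraries, a log2 fold change of 1.27 ± 0.36 (SE, adjusted p = 0.0486). Cxcl2 read 0.361, 0.317 and 0.164 CPM in WT against 1.70, 0.574 and 1.2 CPM in cKO libraries, a log2 fold change of 2.05 ± 0.49 (SE, adjusted p = 0.0297). For both ligands the groups did not overlap and the first cKO library was the highest. Cxcr2 read 0.271, 0.403 and 0.219 CPM in WT against 0.668, 0.825 and 2.20 CPM in cKO libraries, a log2 fold change of 2.05 ± 0.55 (SE, adjusted p = 0.0425), and here the third cKO library was the highest.

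These are low counts, with 6 to 12 fragments of Cxcl2 and 8 to 14 of Cxcr2 in a WT library. When each library was left out in turn, Cxcl1 and Cxcl2 were called in 1 of the 6 fits, which lacked the second cKO library, and Cxcr2 in 2. The log2 fold changes then ran from 0.83 to 1.46 for Cxcl1, from 1.67 to 2.36 for Cxcl2 and from 1.31 to 2.35 for Cxcr2. Of the Cxcl2 words, 5.8% also occur in Cxcl3, which had at most 1 fragment in any library. Cxcl5, another Cxcr2 ligand, had 3 or 4 fragments in WT and 14, 3 and 9 in cKO libraries and was not tested. The neutrophil markers (S100a8, S100a9, Ly6g, Mpo, Elane) summed to between 12.3 and 30.5 CPM in WT against 30.3, 42.9 and 63.1 CPM in the cKO libraries, with 4 of 5 tested, none called and none at 0 in all libraries. The part of those cells in the Cxcr2 result was not tested.

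Cxcl1 and Cxcl2 lie next to each other on chromosome 5, and the 120 bases before each RefSeq start are shown because these neighbours rose together (GRCm38.p6, forward strand, chr5:90891125-90891244 for Cxcl1 and chr5:90903779-90903898 for Cxcl2). Capitals mark matches to the NF-kB consensus, where matches on both strands overlap, shifted by 1 base.
Cxcl1: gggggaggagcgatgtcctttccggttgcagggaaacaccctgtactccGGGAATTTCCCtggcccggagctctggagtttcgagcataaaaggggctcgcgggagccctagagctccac
Cxcl2: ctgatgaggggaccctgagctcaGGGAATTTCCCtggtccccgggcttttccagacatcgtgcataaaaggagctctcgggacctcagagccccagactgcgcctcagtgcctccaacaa
The marked letters are the same in both promoters and begin 71 bases before the start of Cxcl1 and 97 bases before that of Cxcl2. The NF-kB consensus, searched on both strands of the 250 bases before each start, was present in 3.9% of 32851 RefSeq promoters. Promoters matched 46 symbols of the set, and 9 held it: Cxcl1, Cxcl2, Cxcl3, Cxcl10, Ccl9, Ccl20, Ackr2, Ccr3 and Ccr6. Of the 10 matched genes called higher, 4 held it, and of the 28 matched genes tested, 5 did. A symbol counted if any of its promoters held the motif, whereas the shares over all promoters count each promoter. Ccl7, Ccl24 and Cxcl16 were among the higher genes without a matched promoter. The ISRE core was present in 2.98% of all promoters and in 3 of the 46 (Ccl19, Cxcl10 and Cxcl14), and the GAS element in 7.02% and in 4 of the 46.

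The interferon-induced ligands of Cxcr3, a receptor of activated T cells, sit side by side on chromosome 5 and gave unlike values. Cxcl9 read 2.05, 2.88 and 2.82 CPM in WT against 5.35, 20.4 and 4.37 CPM in cKO libraries. All cKO libraries were above the WT libraries, and the second cKO library was several times above the other two. With it, the log2 fold change was 1.95 (95% interval 0.34 to 3.56, adjusted p = 0.0947), and without it the log2 fold change was 0.91 (adjusted p = 0.00292). DESeq2 called Cxcl9 with all libraries. That library also held the most Cd3e, a T cell receptor subunit, at 5.38 CPM beside 0.334 and 0.4 CPM in the other cKO libraries. The T and NK cell markers (Cd3e, Cd3d, Cd4, Cd8a, Nkg7, Ncr1) summed to between 2.23 and 2.77 CPM in WT, and to between 4.14 and 8.25 CPM in cKO libraries. Of the 6 markers, 2 were tested and none called. The highest sum was that of the second cKO library, and Cd3e carried most of it. No other marker of the list was highest there, with Cd4 at 2.40 CPM beside 3.52 and 3.14 CPM in the other cKO libraries. The part of T and NK cells in the Cxcl9 values was not tested.

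Cxcl10 read 15.4, 14.3 and 14.2 CPM in WT against 29.5, 11.3 and 18.3 CPM in cKO libraries. The groups overlapped, because the second cKO library was the lowest of all 6. The log2 fold change was 0.43 (95% interval -0.36 to 1.22, adjusted p = 0.381), and without that library 0.71 (adjusted p = 0.0191). Cxcr3 itself read 1.05, 0.778 and 0.821 CPM in WT against 1.98, 1.40 and 1.46 CPM in cKO libraries, a log2 fold change of 0.87 (95% interval 0.28 to 1.45, adjusted p = 0.0515). Its groups did not overlap, and it was called without the second cKO library (adjusted p = 0.0155).

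The Cxcl10 promoter (GRCm38.p6, chr5:92348890-92349139, reverse strand) is shown because it holds both kinds of element. Capitals mark, in order, an ISRE core 213 bases before the start and NF-kB consensus matches 159 and 103 bases before it.
Cxcl10: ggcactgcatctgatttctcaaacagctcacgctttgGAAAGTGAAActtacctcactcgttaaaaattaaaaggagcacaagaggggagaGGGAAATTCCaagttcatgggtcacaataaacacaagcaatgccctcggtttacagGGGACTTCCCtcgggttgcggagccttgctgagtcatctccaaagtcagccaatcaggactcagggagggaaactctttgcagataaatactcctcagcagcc
Interferon gamma (Ifng) had no fragment in the WT libraries and in the second cKO library, and too few elsewhere to be tested.

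Cxcl11, the remaining Cxcr3 ligand, was lower in cKO nerves. It read 2.59, 2.80 and 2.82 CPM in WT against 1.15, 1.04 and 1.26 CPM in cKO libraries, so the groups were far apart and each was tight. The log2 fold change was -1.24 ± 0.18 (SE, adjusted p = 0.00568), and the call was kept in all 6 leave-one-out fits. In C57BL/6 mice this gene is known to carry a frameshift, and the annotation lists it as a polymorphic pseudogene. All its exonic bases lie inside the span of Art3, a gene on the opposite strand, without touching an Art3 exon, and 41.7% of them overlap the pseudogene Gm2673.

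Art3 itself fell from 596 ± 48.5 to 254 ± 14.2 CPM (SD, n = 3 each, log2 fold change -1.23, adjusted p = 0.00103). Cxcl11 counts equalled 0.469%, 0.432% and 0.478% of the Art3 counts in WT and 0.481%, 0.409% and 0.468% in cKO libraries. Relative to Art3, the groups thus overlapped. Cxcl10, also inside the Art3 span, went from 2.79%, 2.20% and 2.41% to 12.3%, 4.44% and 6.83% of the Art3 counts. Because counting did not use strand, fragments of Cxcl11 and of unspliced Art3 transcripts cannot be told apart.

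Cxcl16, a membrane-anchored ligand of Cxcr6, read 5.84, 6.95 and 6.98 CPM in WT against 20.1, 9.98 and 17.2 CPM in cKO libraries. All cKO libraries were above the WT libraries, the second one least. The log2 fold change was 1.26 ± 0.26 (SE, adjusted p = 0.0182), and it was called in 2 of the 6 leave-one-out fits, with values from 1.04 to 1.5. Of its exonic bases, 18.3% overlap Zmynd15 on the opposite strand, which was not called. Its receptor Cxcr6, within the span of Fyco1, read 0.752, 0.663 and 0.739 CPM in WT against 0.668, 0.790 and 0.457 CPM in cKO libraries (log2 fold change -0.18, adjusted p = 0.678), and the groups overlapped.

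The monocyte attractants Ccl2, Ccl7 and Ccl12, which act through Ccr2, all had higher values in every cKO library than in any WT library, and Ccl7 and Ccl12 passed the test. Ccl2 read 16.0, 17.6 and 10.5 CPM in WT against 35.4, 20.1 and 26.9 CPM in cKO libraries, a log2 fold change of 0.90 (95% interval 0.26 to 1.54, adjusted p = 0.0611). Without the second cKO library the value was 1.08 (adjusted p = 0.0281), and DESeq2 called the gene with all libraries. Ccl7 read 9.93, 10.4 and 8.40 CPM in WT against 16.0, 12.5 and 16.0 CPM in cKO libraries, a log2 fold change of 0.63 ± 0.15 (SE, adjusted p = 0.0298). For Ccl2 and Ccl7 the second cKO library came closest to the WT libraries.

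Ccl12 read 2.98, 3.95 and 3.48 CPM in WT against 7.50, 5.24 and 7.46 CPM in cKO libraries, a log2 fold change of 0.96 ± 0.20 (SE, adjusted p = 0.0195). Ccl7 was called in 1 and Ccl12 in 2 of the 6 leave-one-out fits, with values from 0.54 to 0.74 and from 0.85 to 1.11. Ccr2, the receptor of inflammatory monocytes, read 5.24, 7.003 and 4.24 CPM in WT against 8.69, 3.73 and 5.97 CPM in cKO libraries. Its groups overlapped (log2 fold change 0.16, 95% interval -0.63 to 0.95, adjusted p = 0.755). The monocyte markers (Ly6c2, Plac8, Chil3, F13a1) summed to between 113 and 138 CPM in WT, and to between 264 and 360 CPM in cKO libraries, with Plac8 and F13a1 called higher and none at 0. F13a1 carried most of that sum.

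Ccl6 and Ccl9, rodent chemokines that act mainly through Ccr1, both rose. Ccl9 read 21.1, 22.0 and 22.1 CPM in WT against 57.4, 39.6 and 41.6 CPM in cKO libraries, a log2 fold change of 1.09 ± 0.15 (SE, 2.13-fold, adjusted p = 0.00482). Ccl6 read 18.7, 21.3 and 18.1 CPM in WT against 41.4, 32.5 and 38.89 CPM in cKO libraries, a log2 fold change of 0.96 ± 0.12 (SE, 1.94-fold, adjusted p = 0.00369). For both, the groups did not overlap and the call held in all 6 leave-one-out fits. Ccl3 and Ccl4, classical ligands of activated macrophages, were not called. Ccl3 read 1.17, 1.35 and 1.37 CPM in WT against 1.67, 1.01 and 1.34 CPM in cKO libraries (log2 fold change 0.05, adjusted p = 0.908). Ccl4 read 0.301, 0.461 and 0.438 CPM in WT against 0.942, 0.395 and 0.657 CPM in cKO libraries (log2 fold change 0.73, adjusted p = 0.22). The groups overlapped for both.

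Ccl5, a ligand known from T cells, had 3, 3 and 7 fragments in WT and 41, 7 and 27 in cKO libraries. The third WT and the second cKO library had the same number of fragments, and the low-count filter took the gene out of the test. Without that filter its log2 fold change was 2.58 (adjusted p = 0.0114), and it was also called by DESeq2 and without the second cKO library.

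Ccr1 read 16.1, 22.8 and 20.8 CPM in WT against 33.5, 20.8 and 26.3 CPM in cKO libraries, with overlapping groups (log2 fold change 0.43, 95% interval -0.05 to 0.92, adjusted p = 0.184). Without the second cKO library Ccr1 was called (0.59, adjusted p = 0.0206).

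Ccl24, or eotaxin-2, shares the receptor Ccr3 with Ccl11 and is made by macrophages. It read 4.27, 4.99 and 4.32 CPM in WT against 10.1, 9.15 and 11.3 CPM in cKO libraries. The 2 groups were tight and far apart. The log2 fold change was 1.17 ± 0.14 (SE, 2.25-fold, adjusted p = 0.00303), and it stayed between 1.08 and 1.24 in the 6 leave-one-out fits, with the call kept in each. Ccr3, the eosinophil receptor, had 2 to 5 fragments in WT and 4 to 9 in cKO libraries and was not tested.

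**Figure D3:**
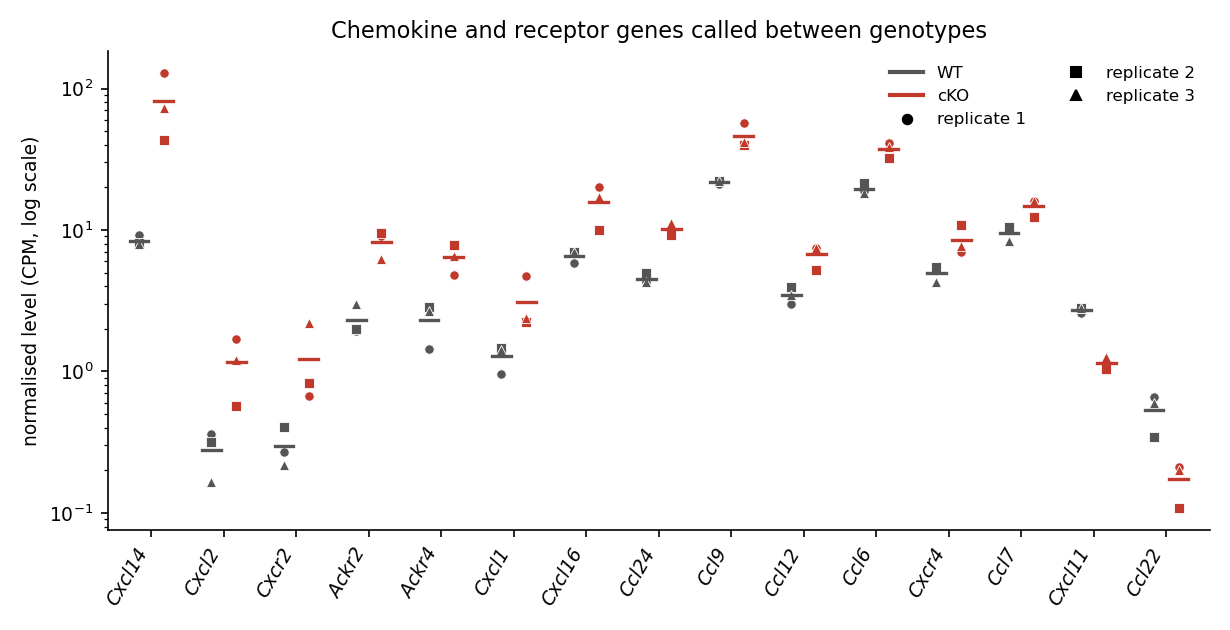
Level (CPM, log scale) of called genes in each library, with a bar at the group mean. Cxcl14 shows the widest gap between groups (8.02 to 9.15 against 43.1 to 130 CPM), Ccl24 and Cxcl11 show tight groups, and the lowest cKO point of Cxcl16 is the second library.

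Ccl22, a macrophage and dendritic cell product that attracts Ccr4-bearing T cells, was lower in cKO nerves. It had 22, 12 and 22 fragments in WT and 7, 3 and 7 in cKO libraries, or 0.662, 0.346 and 0.602 against 0.213, 0.108 and 0.200 CPM. The groups did not overlap (log2 fold change -1.59 ± 0.41 SE, adjusted p = 0.0397), but Ccl22 passed the low-count filter only through the WT libraries. The call held in 1 of the 6 leave-one-out fits, with values from -1.84 to -1.36, and DESeq2 did not make it. Ccl17, its neighbour and partner at Ccr4, had 0 to 14 fragments and Ccr4 at most 4, and neither was tested. Dendritic cell markers (Flt3, Zbtb46, Cd209a, Itgax, Clec9a) summed to between 21.7 and 25.4 CPM in WT, and to between 19.2 and 20.3 CPM in cKO libraries, with 1 called each way among 4 tested and none at 0 in all libraries. Zbtb46, which was called lower, carried most of that sum, and the other 4 markers summed to 2.65, 3.05 and 3.56 CPM in WT against 4.41, 3.16 and 5.20 CPM in cKO libraries, with Itgax called higher. Their part in the Ccl22 result was not tested.

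Ccl21a, which lymphatic vessels use to guide dendritic cells through Ccr7, read 3.01, 3.75 and 3.91 CPM in WT against 0.820, 1.54 and 2.54 CPM in cKO libraries. The groups did not overlap, but the test was not passed (log2 fold change -1.12, 95% interval -2.03 to -0.21, adjusted p = 0.0887), except without the third cKO library (-1.60, adjusted p = 0.0377) and by DESeq2. Of its 50-base words, 71.6% occur in other genes, Ccl21b among them, so its counts are uncertain. Ccr7 had 4 to 9 fragments per library and was not tested. Among lymphatic markers, Lyve1 and Pdpn were called higher, Mmrn1 was called lower (-1.67, adjusted p = 0.0222), and Prox1 and Flt4 were not called. Lyve1 is also found on nerve macrophages and Pdpn on fibroblasts.

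The homeostatic ligand Cxcl12, which retains blood progenitors and guides migrating cells, read 132, 119 and 125 CPM in WT against 163, 132 and 187 CPM in cKO libraries. The second cKO library lay just above the highest WT library, and no call was made (log2 fold change 0.36, 95% interval 0.04 to 0.68, adjusted p = 0.111). Its signalling receptor Cxcr4 read 5.17, 5.48 and 4.32 CPM in WT against 6.96, 10.9 and 7.69 CPM in cKO libraries, a log2 fold change of 0.77 ± 0.21 (SE, adjusted p = 0.0434). Here the second cKO library was the highest, the groups did not overlap, and the call held in 2 of the 6 leave-one-out fits, with values from 0.55 to 0.89. Its scavenger Ackr3 read 62.0, 76.7 and 65.9 CPM in WT against 108, 69.6 and 95.7 CPM in cKO libraries, with overlapping groups (log2 fold change 0.42, 95% interval 0.01 to 0.83, adjusted p = 0.135). Without the second cKO library, both Cxcl12 (0.48, adjusted p = 0.000541) and Ackr3 (0.58, adjusted p = 0.000547) were called.

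Cx3cl1, or fractalkine, is membrane-bound on neurons and endothelium, and its receptor Cx3cr1 marks resident macrophages. Cx3cl1 read 2.98, 2.77 and 2.60 CPM in WT against 4.19, 3.52 and 4.14 CPM in cKO libraries, which did not overlap (log2 fold change 0.51, 95% interval 0.13 to 0.89, adjusted p = 0.0702). Without the second cKO library Cx3cl1 was called higher (0.58, adjusted p = 0.0192). Cx3cr1 read 24.9, 27.2 and 27.4 CPM in WT against 33.1, 20.7 and 27.6 CPM in cKO libraries. Its groups overlapped, with a log2 fold change of 0.04 (95% interval -0.37 to 0.44, adjusted p = 0.899). The direction of Cx3cr1 turned when the first WT or the first cKO library was left out (-0.01 and -0.13). Set against the macrophage marker sum, Cx3cr1 went from 3.39%, 3.18% and 3.36% to 1.87%, 1.70% and 2.10%, and Ccr2 from 0.713%, 0.819% and 0.520% to 0.491%, 0.307% and 0.454%, each with every cKO library below every WT library, as for 66.8% of all genes tested on that scale.

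Ackr2, which takes up inflammatory CC chemokines such as Ccl2 and Ccl7 for degradation, read 1.93, 1.99 and 2.98 CPM in WT against 9.11, 9.48 and 6.26 CPM in cKO libraries. Every cKO library lay well above every WT library. The log2 fold change was 1.85 ± 0.25 (SE, 3.59-fold, adjusted p = 0.00436), and the call held in all 6 leave-one-out fits, with values from 1.73 to 2.07. The gene lies on GRCm38 chromosome 9 (121898355 to 121911074, forward strand) and shares none of its 50-base words with another gene.

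The 250 bases before its RefSeq start (GRCm38.p6, chr9:121898105-121898354, forward strand) are shown because Ackr2 was the atypical receptor with the largest change. Capitals mark NF-kB consensus matches 224 and 64 bases before the start.
Ackr2: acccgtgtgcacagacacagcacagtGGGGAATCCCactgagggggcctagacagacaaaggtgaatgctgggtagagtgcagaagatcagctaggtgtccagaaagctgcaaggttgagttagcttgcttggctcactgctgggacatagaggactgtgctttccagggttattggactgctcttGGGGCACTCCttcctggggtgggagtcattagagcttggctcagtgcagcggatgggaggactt
The first of these reads as a match on both strands.

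Ackr4, the scavenger of Ccl19, Ccl21a and Ccl25, read 1.44, 2.85 and 2.68 CPM in WT against 4.77, 7.86 and 6.57 CPM in cKO libraries. The groups did not overlap (log2 fold change 1.46 ± 0.31 SE, 2.74-fold, adjusted p = 0.0202), and the call held in 2 of the 6 leave-one-out fits, with values from 1.2 to 1.63. All exonic bases of Ackr4 lie inside the span of Acad11 on the opposite strand, and 8.9% overlap its exons. Acad11 was not called, at 11.7 ± 0.556 CPM in WT against 13.4 ± 4.3 CPM in cKO nerves (SD, n = 3 each, log2 fold change 0.20, adjusted p = 0.558).

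Ackr1, the receptor by which venules present chemokines to blood cells, read 14.6, 17.6 and 19.5 CPM in WT against 16.2, 13.2 and 14.9 CPM in cKO libraries. Its groups overlapped (log2 fold change -0.22, 95% interval -0.56 to 0.12, adjusted p = 0.305). It shares 25.7% of its exonic bases with Cadm3, which fell from 111 ± 4.67 to 70.7 ± 6.57 CPM (SD, n = 3 each, log2 fold change -0.65, adjusted p = 0.00535), so its values are uncertain. Endothelial markers summed to between 508 and 533 CPM in WT, and to between 604 and 690 CPM in cKO libraries. Of these 7 markers, 1 was called higher and none lower, beside 8.55% and 10.3% of all genes tested. The part of endothelial cells in the Ackr1 values was not tested.

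The remaining tested genes were not called. The log2 fold changes were 0.98 for Ccl8, 0.30 for Ccl28, -0.25 for Ccl25, -0.58 for Ccl27a and -0.17 for Ccr10, and the groups of all 5 overlapped. Ccl28, a mucosal ligand of Ccr10, changed sign without the third cKO library. Ccl27a, the skin-associated ligand of Ccr10, shares 45% of its words with other genes and was called lower only without the second cKO library (-1.12, adjusted p = 0.000716).

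By position, the chromosome 11 cluster (82035571 to 83664683), which holds Ccl2, Ccl7, Ccl11, Ccl12, Ccl8, Ccl1, Ccl5, Ccl9, Ccl6, Ccl3 and Ccl4, had 9 of 11 rows tested, 4 called higher and none lower, with a median log2 fold change of 0.90. The chromosome 5 cluster (90759360 to 92365485), which holds 8 Cxcl genes, had 5 tested, 2 called higher and 1 lower. The chromosome 4 cluster around Ccl21a and Ccl27a (41769467 to 42773993) had 2 of 7 rows tested and no call. Calls in both directions were found in the chromosome 5 cluster. The lower gene there was Cxcl11, whose fragments cannot be told apart from those of unspliced Art3 transcripts. Of the higher genes there, Cxcl2 passed the low-count filter only through the cKO libraries. Over all genes tested, 8.55% were called higher and 10.3% lower.

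Without the second cKO library, 23 genes of the set were called higher and 3 lower, when 17.8% of all 19256 genes tested were called higher and 17.6% lower. All 14 higher and both lower genes were among them, and so was Ccl5. Without any 1 of the WT libraries, or without the third cKO library, the higher calls came down to the same 5 genes, Cxcl14, Ackr2, Ccl24, Ccl9 and Ccl6. In those fits between 2.33% and 4.38% of all genes were called higher, and the adjusted p of the 9 lost genes lay between 0.05745 and 0.169. Without the first cKO library, Cxcl1, Cxcl2 and Ccl7 were among the genes that lost their calls. Only those 5 genes and Cxcl11 were called in each of the 6 fits.

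**Figure D4:**
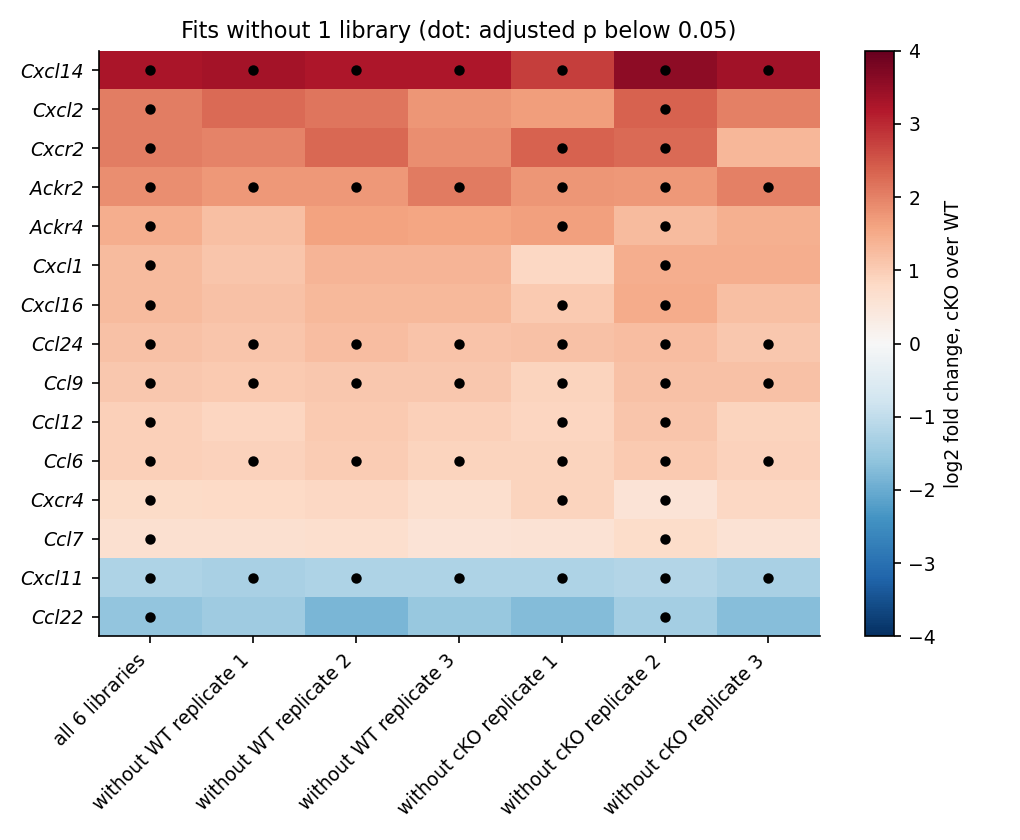
Log2 fold change (colour, cKO over WT) of called genes with all 6 libraries and with each library left out, with a dot where the adjusted p was below 0.05. Colours stay on the same side of 0 throughout, while dots run across the whole row for Cxcl14, Ackr2, Ccl24, Ccl9, Ccl6 and Cxcl11.

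Because macrophage markers were also higher in cKO nerves, each gene was set against the summed CPM of the 13 macrophage markers, a comparison chosen after the values were seen. Of the 37 genes tested, 4 were above every WT library in every cKO library on that scale, 18 overlapped and 15 were below, beside 1.76% above and 66.8% below of all genes tested. The 4 were Cxcl14, Ackr2, Cxcl1 and Ccl9, all among the 14 higher genes, and the other 10 higher genes overlapped. Cxcl1 was above only narrowly, at 0.180% in the third cKO library against 0.174% in the third WT library. The genes below included Ackr1, Ackr3, Ccl11, Ccr1, Ccl3 and Cx3cl1. The ratio of group means (cKO over WT) was 5.16 for Cxcl14, 2.06 for Ackr2, 1.32 for Cxcl1 and 1.19 for Ccl9. Among the overlapping higher genes it was 2.46 for Cxcr2, with widely spread cKO libraries, and 2.21 for Cxcl2. It was 1.65 for Ackr4, 1.325 for Cxcl16 and 1.29 for Ccl24. It was near 1 for Ccl6 (1.10), Ccl12 (1.10) and Cxcr4 (0.999), and Ccl7 was at 0.873. The part of macrophage number in these results was not tested.

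**Figure D5:**
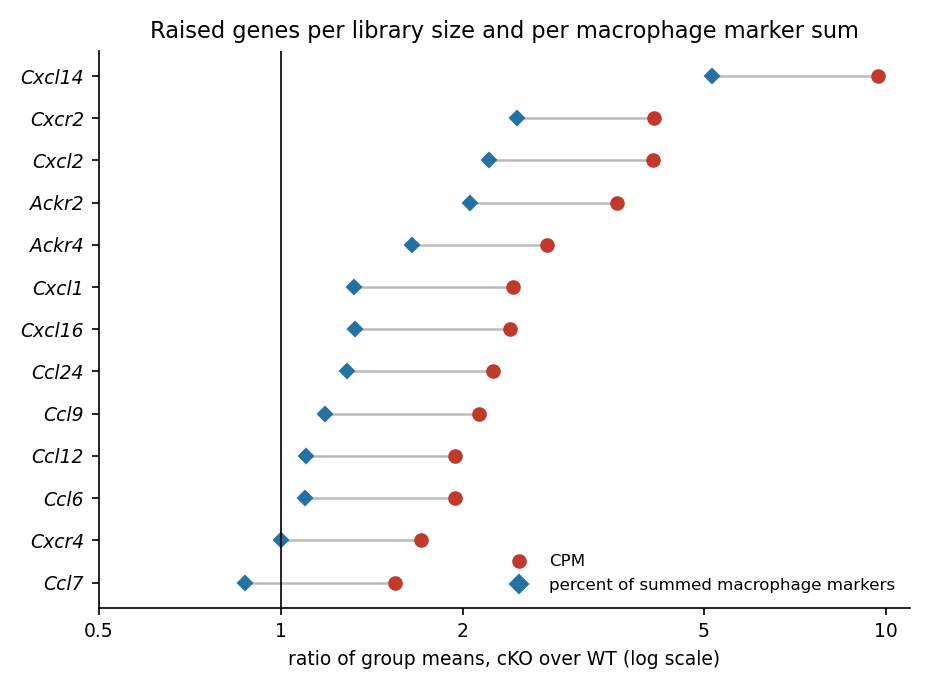
Ratio of group means (cKO over WT, log scale) of higher genes in CPM (circles) and as a percent of the summed macrophage markers (diamonds). All circles lie right of 1, and the diamonds run from 0.873 for Ccl7 to 5.16 for Cxcl14.

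Genes that act behind chemokine receptors, in a list of 28, had 12 called higher and 2 lower, with a median log2 fold change of 0.63. Of all genes tested, 8.55% were called higher and 10.3% lower. Dock2, which activates Rac in migrating leukocytes, was higher by 0.96 (adjusted p = 0.00173), and Lyn, a leukocyte Src-family kinase, by 0.76 (adjusted p = 0.00284) on the log2 scale. Plcb2, the phospholipase of leukocyte G protein signalling, was higher by 1.80 (adjusted p = 0.00591). Elmo1, a partner of Dock proteins, was lower at -0.92 (adjusted p = 0.00275), and the G protein subunit gene Gng2 was lower at -1.46 (adjusted p = 0.00371). The inhibitory G protein gene Gnai2 and the arrestin gene Arrb1, used by most cell types, were not called, at 0.03 and 0.02.

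A list of 25 genes of the pathways that induce chemokines, including the inhibitor gene Nfkbia, had 24 tested. Of these, 9 were called higher and 1 lower, with a median log2 fold change of 0.26. The shares over all genes tested were 8.55% higher and 10.3% lower. The TNF receptor Tnfrsf1b was higher by 0.81 (adjusted p = 0.00608), Nfkbia, the NF-kB inhibitor and target, by 0.63 (adjusted p = 0.00697), and the lipopolysaccharide receptor Tlr4 by 0.86 (adjusted p = 0.0121). The cytokine gene Il1b was called higher by 1.49 (adjusted p = 0.0388), at 0.372 ± 0.187 CPM in WT against 1.05 ± 0.201 CPM in cKO nerves (SD, n = 3 each). In the first WT library it read 0.211 CPM, below the low-count filter's minimum of 0.304 CPM. Il1b thus passed that minimum in every library of the cKO group only. Tnf was not called, at -0.02. Hif1a, the hypoxia factor, was the lower gene (-0.35, adjusted p = 0.0241).

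Of 10 chemokine-related genes that the symbol rule leaves out, 4 were called higher and none lower, with a median of 0.45. All genes tested had 8.55% called higher and 10.3% lower. Dpp4, a peptidase that trims the ends of many chemokines, rose by 1.32 (adjusted p = 0.00126), Pf4, a CXC chemokine of platelets and macrophages, by 0.67 (adjusted p = 0.00900), and the chemerin receptor Cmklr1 by 0.68 (adjusted p = 0.0118). Ccrl2, an atypical chemerin receptor, was the remaining gene, at 1.02 (adjusted p = 0.0204). Dpp4 is also a fibroblast marker.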

How the data were processed

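RNA of 6 sciatic nerve libraries, 3 WT and 3 cKO by sample title, was compared. The authors deposited 1 table of counts of fragments per gene, not normalized, with each gene's exonic length as a further column. Fragments were assigned by featureCounts 1.6.1 to Ensembl GRCm38 release 95 exons per the file headers, with a minimum mapping quality of 20, both ends aligned and strand not used. The submitters' processing notes name Subread 2.0, DESeq2 1.3 and the builds mm10 and GRCm38, and the aligner settings were not given in the sources used here. Without strand, fragments of overlapping genes on opposite strands cannot be told apart, and the mapping quality limit lowers counts of near-identical copies.

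Symbols came from GENCODE M21 (54809 of 54838 identifiers matched). Tests used edgeR 4.0.16 in R 4.3.3: filterByExpr (minimum count of 10), TMM, robust quasi-likelihood F test, 2-sided, 4 residual degrees of freedom, Benjamini-Hochberg adjustment over 18775 genes. CPM and FPKM were computed here. The test was checked on simulated data. Alternatives were DESeq2 1.42.0, its size factors in edgeR, no filter, a replicate block and each library left out. Pairs of libraries of 1 group all differed beyond sampling noise, with chi-square per degree of freedom from 8.26 to 311.6. Per-library values are given for called genes, the 6 most abundant ligands and receptors and the textbook partners of called genes, and list genes are those with the smallest p; Gnai2, Arrb1, Il1b, Tnf, Hif1a, Ifng, Gng2, Plcb2, Cd3e, Prox1, Flt4 and Ccrl2 were chosen after their values were seen. Members and lists were chosen with earlier results of these data known. Promoters are RefSeq's for GRCm38.p6. Some genes are not reported here.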

Additional observations from a re-analysis of the deposited data

How the results depend on the processing

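Of the 33 rows not tested, 10 were at 0 in every library and 23 had fragments but too few to pass the low-count filter. DESeq2 size factors in edgeR and the absence of a low-count filter changed no call among the 37 genes tested, and DESeq2's own test changed 4 (Cxcl9, Ccl2 and Ccl21a gained, Ccl22 lost). Ccl5, not tested otherwise, was called by DESeq2, without the filter and without the second cKO library (2.61, 2.58 and 2.98). The median log2 fold change of 0.63 ran from 0.46 to 0.71 when each library was left out. Leaving out each library in turn gave 449 to 3425 genes called higher over the whole table (2.33% to 17.8% of genes tested). Between 790 and 3398 genes were called lower (4.09% to 17.6%). In the set, 5 to 23 genes were called higher and 1 to 3 lower, of 38 to 40 tested. The largest counts came without the second cKO library. The cause was not tested, although a left-out library also means fewer samples.

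With the replicate block, 744 genes were called higher and 1108 lower, or 3.96% and 5.9% of the 18775 tested. Of the 37 genes tested in the set, 7 were called higher (among them Cxcl14, Ackr2, Ackr4, Ccl24, Ccl6 and Ccl9) and 1 lower (Cxcl11). The labels do not say whether equal numbers mark pairs. Deviations of same-numbered libraries correlated at -0.32, -0.33 and -0.10, and no library correlated best with its own number. With 3 libraries per group, such correlations cannot settle whether the libraries were paired.

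5 genes that were not called turned direction, all near 0. Over the fits without 1 library the log2 fold change ran from -0.13 (without the first cKO library) to 0.20 (without the second) for Cx3cr1, with -0.01 without the first WT library. For Ccr2 it ran from -0.18 to 0.41 between the same 2 fits, with -0.0016 without the third WT library. For Ccl3 it ran from -0.14 to 0.21 between them, with -0.03 without the first WT library. For Cxcr6 it ran from -0.35 (without the second cKO library) to 0.019 (without the third), and for Ccl28 from -0.0495 (without the third) to 0.54 (without the second).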
